A study of Mus musculus with 12 samples.

Results

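A set of 143 transcripts was followed that had its lowest level 2 h after shear in mouse podocytes, among 23332 transcript rows measured on every array. Candidates were the 10650 rows that carried 1 gene symbol and had a mean of at least 6 on the log2 scale over the 12 arrays. For each candidate, the value 2 h after shear was subtracted from the Control value of the same replicate number, and the smallest of the 3 differences was its score. The Post-2hr mean also had to lie below the other 3 group means, which held for 4645 candidates. Of the 150 rows with the highest score, 7 were left out by symbol (Cox7b, Sesn1, Acvr1b, Ppargc1a, Dbp, Per3 and Arhgdib). The remaining 143 rows stand for 141 genes, with 2 rows each for Zc3h6 and Srgap3. The members were thus chosen by their own Control and Post-2hr values, together with the End and Post-24hr means, and their low level at Post-2hr is described here without a test.

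The cells came from an immortalized line of mouse podocytes, the epithelial cells that wrap the capillaries of the kidney glomerulus. All groups carried the thermosensitive tsA58 T antigen, were propagated at 33 °C with γ-interferon, and were differentiated at 37 °C without it until day 14. Control cells stayed in the same hood and incubator and received no fluid flow. The End group was harvested directly after 2 h of fluid flow shear stress at 2 dynes/cm2, reached with a flow of 75 ml/min. The Post-2hr and Post-24hr groups received the same shear and were then returned to their original medium for 2 h and 24 h. Each group had 3 arrays with replicate numbers 1 to 3, and array values below are given in that order. The labels do not state separate cultures, so p-values measure a spread between samples that may be technical. The design asks which transcripts differ from unsheared cells at the end of flow and during recovery. The transcripts described here were chosen for a low level at the early recovery harvest.

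Podocytes bear the shear of the filtrate that flows past them, and in cultured podocytes flow is known to induce cyclooxygenase 2 and the prostaglandin E2 that signals through cAMP. Messenger RNA levels a few hours after a stimulus depend on how fast a transcript is made and how fast it decays, so short-lived messages of transcription factors and signalling proteins can follow a stimulus closely. A level on a bulk array also depends on the cells present: fewer cells of a type and less RNA per cell cannot be told apart.

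Because the transcripts were low together, their promoters were read from RefSeq (assembly GRCm38.p6). Windows of 300 bases, from 250 before to 50 after a transcript start, were found for 111 of the 141 genes, 152 windows in all. Their median GC content was 59.0% and their median CpG count 17, against 60.7% and 20 in windows of all candidate genes and 52.7% and 7 in all 32851 windows. The 120 bases upstream of the start are shown for Gpr146 and Atoh8, which had the widest gaps between the Post-2hr arrays and all other arrays, and for the members of highest score with the palindrome known from nuclear respiratory factor 1 (NRF1), Bphl and Cep57l1. Capitals mark matches on either strand to GGGCGG (GC box) in Gpr146 and Atoh8, and to GCGCATGCG (NRF1) in Bphl and Cep57l1. A run of 10 capitals in the latter is a match on each strand, overlapping by all but 1 base.
Gpr146 (chr5:139380519-139380638, plus strand): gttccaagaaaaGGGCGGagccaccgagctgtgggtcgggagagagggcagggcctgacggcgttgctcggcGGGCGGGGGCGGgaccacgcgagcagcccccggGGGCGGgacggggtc
Atoh8 (chr6:72235578-72235697, minus strand): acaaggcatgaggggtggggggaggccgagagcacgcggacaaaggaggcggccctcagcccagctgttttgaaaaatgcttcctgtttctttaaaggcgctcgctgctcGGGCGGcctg
Bphl (chr13:34037521-34037640, plus strand): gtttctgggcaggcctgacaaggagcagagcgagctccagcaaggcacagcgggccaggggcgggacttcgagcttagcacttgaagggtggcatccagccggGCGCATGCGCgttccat
Cep57l1 (chr10:41809869-41809988, minus strand): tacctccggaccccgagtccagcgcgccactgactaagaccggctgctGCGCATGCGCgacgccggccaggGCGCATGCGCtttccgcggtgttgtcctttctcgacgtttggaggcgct

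Counted from its first base as printed, the nearest match lay 15 bases before the start in Gpr146, 10 in Atoh8, 16 in Bphl and 48 in Cep57l1. The NRF1 letters were in 3.95% of the members' windows, 3.33% of candidate windows and 1.75% of all windows, and GGGCGG was in 58.6%, 61.7% and 35.7%. The shares for E-box CACGTG were 9.87%, 9.59% and 7.15%, those for ETS CCGGAAG were 11.2%, 15.8% and 8.86%, and those for NFY CCAAT were 36.8%, 37.5% and 37.4%. Members' windows held AP-1 TGANTCA in 3.95% against 5.22% and 7.81%, CRE TGACGTCA in 0.658% against 2.89% and 1.79%, and FOXO GTAAACA in 0.658% against 2.54% and 3.65%. TATAAA was in 6.58% against 7.14% and 13.6%, the D-box TTANGTAA in 1.97% against 1.36% and 2.32%, CAGCTG in 17.8% against 16.1% and 16.3%, and the Sry-type AACAAT in 6.58% against 5.79% and 10.7%. The Kaiso-type TCTCGCGA was in 0 of the 152 windows against 1.95% and 0.995%, and the NF-kB letters GGGAATTTC were in 0 against 0.182% and 0.259%. Of the members' windows, 19 held none of the 14 motifs. CRE and FOXO were in 1 member window each. These matches describe letters in a window and say nothing of binding.

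The members were lower by a modest amount on all 3 Post-2hr arrays. The median member minus its Control mean was −0.49, −0.59 and −0.47 on these arrays, and between −0.15 and 0.05 on the other 9. In group means, Post-2hr minus Control ran from −1.25 for Atoh8 to −0.31 for Chst10, with a median of −0.49, beside a median of −0.02 over all rows. These are levels 1.24 to 2.38 times lower, with a median of 1.41. Only Atoh8 was lower by 1 or more on the log2 scale, and 68 of 143 were lower by 0.5 or more. The heat map of every member on every array shows the 3 Post-2hr columns darker than the rest.

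**Figure D1:**
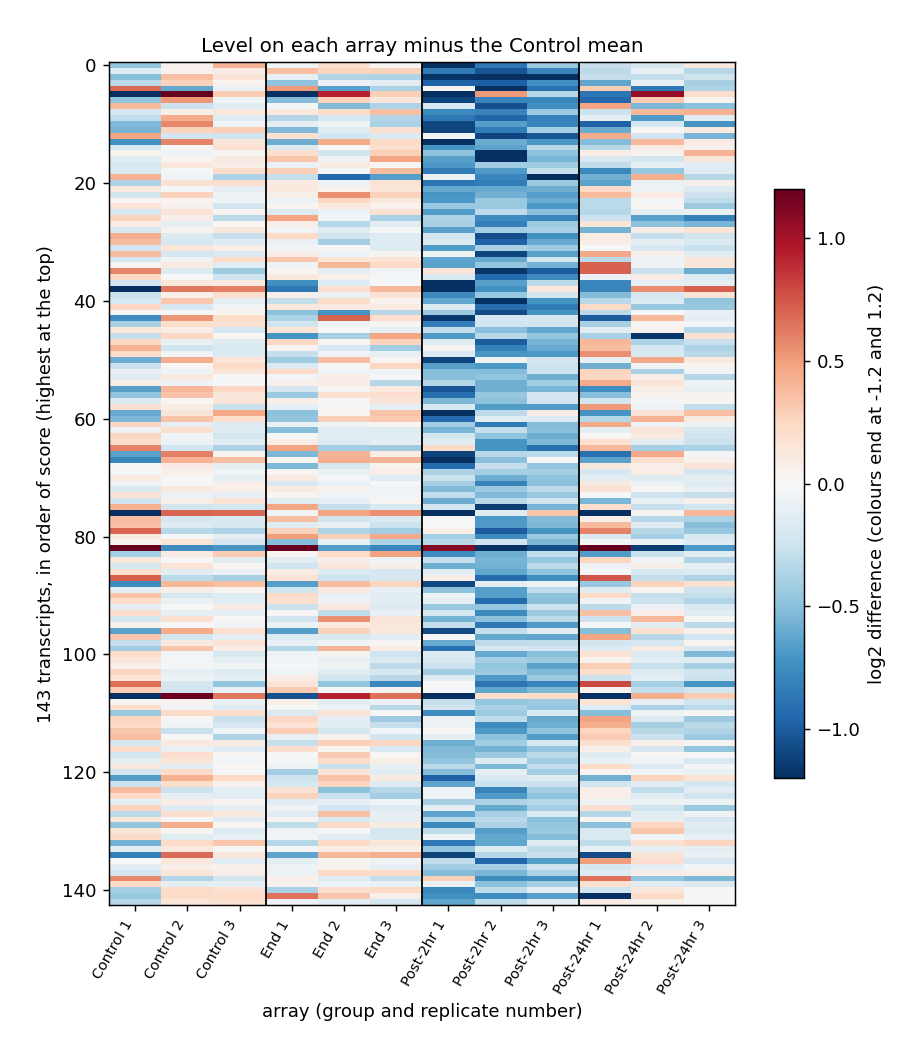
Log2 level of each of the 143 transcripts on each of the 12 arrays minus that transcript's Control mean, in order of score from the top; blue is lower and red higher, and colours end at 1.2 in either direction. The Post-2hr columns are blue for nearly all transcripts, and strongly coloured stripes mark transcripts whose replicate 1 arrays differed from the others in all 4 groups.

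All 3 Post-2hr arrays lay below all 3 Control arrays for 73 members, where 5.01% of all rows and 6.13% of candidates did so. All 3 lay below the End arrays for 77 members (7.86% of all rows and 11.8% of candidates) and below the Post-24hr arrays for 54 (5.68% and 6.37%). For 43 members, every Post-2hr array was below each of the 9 other arrays, which 1.25% of all rows and 2.01% of candidates showed. The widest such gaps were 0.67 for Atoh8, 0.48 for Gpr146 and 0.44 for Atf7ip. These shares follow from the choice of the members. In limma's fit to all 23332 rows, Post-2hr differed from Control for 0.0171% of rows, 4 in number, of which 1 was lower (0.00429%). That row is the member Gpr146. With the replicate number as a block, 38 rows were called in limma's fit. Since this contrast chose the members, nothing is read from these counts. At the edge of the set, the scores of the last 3 rows inside were 0.290 for each of Lrp4, Cxcl12 and Nrbp2, and those of the first 3 outside were 0.288 for each of BC052040, Adnp2 and Adamts5. With the rule applied without replicate 1, 2 or 3, 65, 117 and 51 of the 143 were chosen again, so leaving out replicate 1 or 3 altered the set more than leaving out replicate 2.

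The role group of receptors and channels held 10 members, and Post-2hr minus Control had a median of −0.56 in this group. The receptor Olfr353 was also a member but was not placed in the group, and its difference was −0.49 ± 0.36. Rtn4rl1, a Nogo receptor family protein of the cell surface, had the highest score, and its log2 levels were 8.93, 9.44 and 9.80 on the Control arrays, 9.35, 9.59 and 9.41 at End, 8.10, 8.53 and 8.95 at Post-2hr and 9.11, 9.20 and 9.51 at Post-24hr. Its Post-2hr arrays lay below all End and Post-24hr arrays, but the highest Post-2hr array was level with the lowest Control array to within 0.02, and the difference of means was −0.87 ± 0.25 (standard error of the fit, n = 3 in each group). Gpr146, a G protein-coupled receptor known in mouse liver for its effect on plasma cholesterol, was at 8.08, 8.28 and 8.32 on the Control arrays, 8.58, 8.48 and 8.49 at End, 7.37, 7.19 and 7.42 at Post-2hr and 7.91, 8.13 and 7.90 at Post-24hr. No Post-2hr array overlapped any other group, and every End array was above every Control array. Its mean was 8.22 ± 0.13 (SD, n = 3) in Control and 7.33 ± 0.12 at Post-2hr, a level 1.86 times lower. Calhm5, of the calcium homeostasis modulator channel family, was at 7.09, 7.17 and 6.92 on the Control arrays, 7.01, 7.46 and 7.30 at End, 6.42, 6.59 and 6.49 at Post-2hr and 7.77, 7.02 and 7.20 at Post-24hr. Its Post-2hr arrays also lay below the other 9, by at least 0.33. Npy2r, a receptor for neuropeptide Y, was at 6.80, 8.67 and 8.64 on the Control arrays, 7.18, 8.24 and 8.43 at End, 6.37, 7.31 and 8.17 at Post-2hr and 7.26, 8.59 and 8.75 at Post-24hr. Its replicate 1 array was the lowest of its group at all 4 harvests, and the groups overlapped. Fzd4, a receptor for Wnt ligands and norrin, was at 9.05 ± 0.22 in Control and 8.48 ± 0.42 at Post-2hr, and its replicate 1 array at Post-2hr (8.90, 8.05 and 8.49) was above 1 of the Control arrays (9.29, 8.96 and 8.89). The rest of the group were P2rx6, an ATP-gated channel subunit, Ptprf, a receptor tyrosine phosphatase, and Edar, Tnfrsf19 and Lrp4. Edar and Tnfrsf19 are of the tumour necrosis factor receptor family, and Lrp4 is a receptor known for agrin at the neuromuscular junction. The Post-2hr minus Control differences of P2rx6, Ptprf, Edar, Tnfrsf19 and Lrp4 ran from −0.57 to −0.40. All 3 Post-2hr arrays were below the Control arrays for Ptprf and Edar.

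Ligands and secreted signals gave 4 members. Bmp4, a bone morphogenetic protein that acts in kidney development, was at 8.33, 9.37 and 9.10 on the Control arrays, 8.50, 9.30 and 8.97 at End, 7.82, 8.89 and 8.71 at Post-2hr and 8.86, 9.38 and 9.05 at Post-24hr. Each Post-2hr array was lower than the same-numbered array of the other groups, but replicate 1 was lower than the others in every group, so the groups overlapped. Icosl, the ligand of the T cell costimulator ICOS, was at 8.10, 7.75 and 7.69 on the Control arrays, 7.78, 7.79 and 7.88 at End, 7.43, 7.01 and 7.33 at Post-2hr and 8.30, 7.80 and 7.78 at Post-24hr, with every Post-2hr array below the other 9. Fam3c, a secreted protein of the FAM3 family, was the brightest member, at 11.92, 12.12 and 12.09 on the Control arrays, 11.98, 12.09 and 11.95 at End, 11.63, 11.63 and 11.79 at Post-2hr and 11.83, 11.94 and 12.01 at Post-24hr. Its Post-2hr arrays were below all others, at a difference from Control of only −0.36 ± 0.09. Cxcl12, the chemokine that podocytes are known to make for neighbouring capillary cells, was at 8.39, 9.07 and 9.05 on the Control arrays, 9.49, 9.16 and 8.90 at End, 8.10, 8.08 and 8.17 at Post-2hr and 7.61, 9.08 and 8.83 at Post-24hr. The 3 Post-2hr arrays were within 0.10 of each other, and replicate 1 at Post-24hr was lower than all of them. The signalling modulators Lypd6, which promotes Wnt signalling at Lrp6, and Dact2, which in zebrafish promotes the breakdown of Nodal receptors, had Post-2hr arrays below all Control and End arrays. Lypd6 was at 7.46, 7.72 and 7.78 on the Control arrays, 7.78, 7.88 and 8.01 at End, 6.88, 6.85 and 7.21 at Post-2hr and 7.39, 8.04 and 8.07 at Post-24hr, and Dact2 was at 8.71, 8.88 and 9.11 on the Control arrays, 9.18, 8.87 and 9.28 at End, 8.06, 8.22 and 8.61 at Post-2hr and 8.13, 8.45 and 8.74 at Post-24hr. The Post-24hr arrays of Lypd6 did not overlap those of Post-2hr, while those of Dact2 did.

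**Figure D2:**
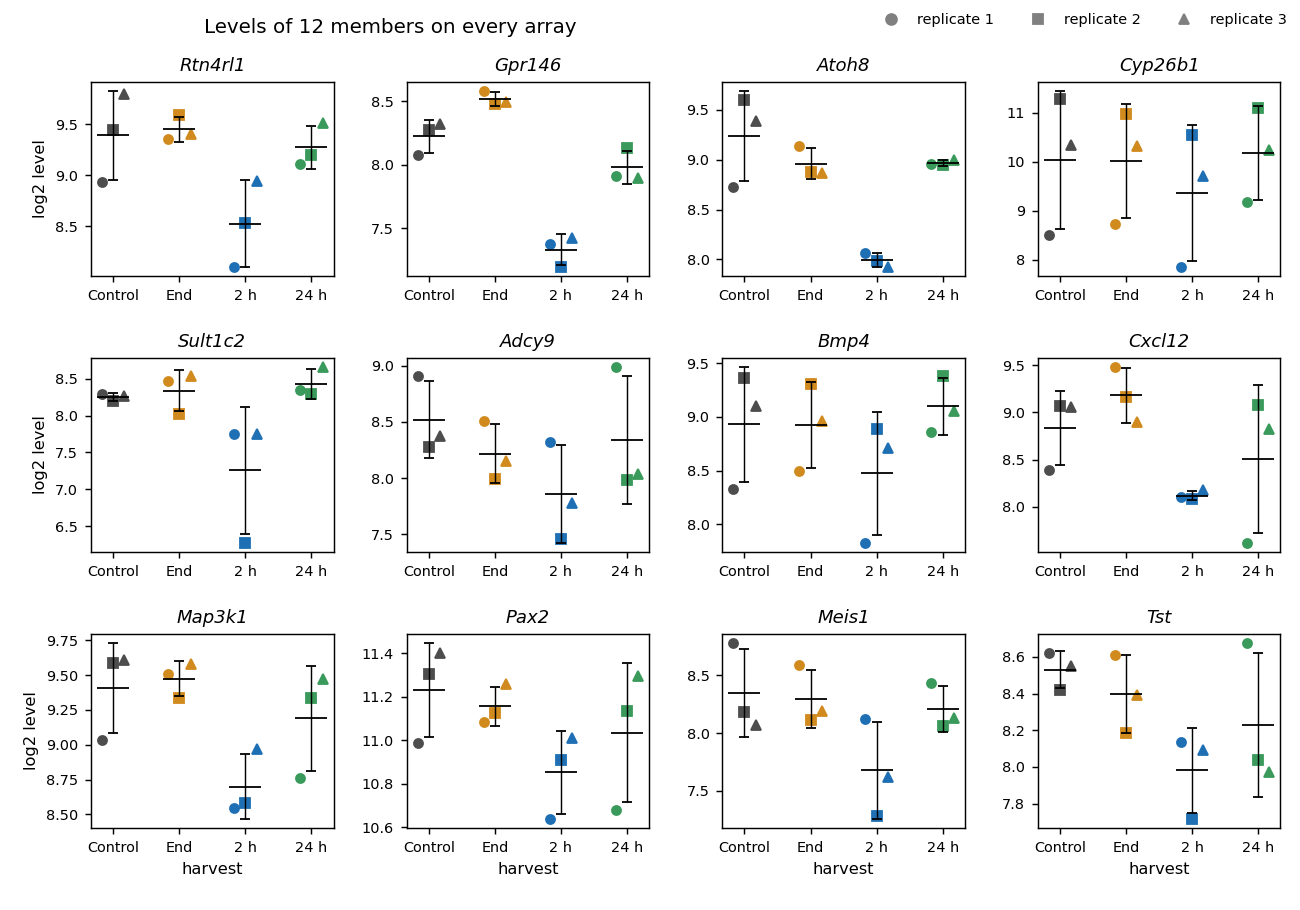
Log2 level on every array for 12 named transcripts, with Control, End, Post-2hr (2 h) and Post-24hr (24 h) from left to right, a symbol for each replicate number, and the mean with SD of the 3 arrays as a bar; each panel has its own vertical range, which does not start at 0. Post-2hr is the lowest group mean in each panel, as the choice requires; Gpr146 and Atoh8 show no overlap with other groups, and Cyp26b1 and Bmp4 show a replicate 1 array that is the lowest of every group.

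Among kinases, cyclases, phospholipases and phosphatases there were 8 members. Adcy9, an adenylyl cyclase that makes cAMP, was at 8.91, 8.28 and 8.37 on the Control arrays, 8.51, 8.0 and 8.15 at End, 8.32, 7.46 and 7.78 at Post-2hr and 8.99, 7.98 and 8.03 at Post-24hr. Replicate 1 was the highest array of each group, and its Post-2hr value exceeded 1 of the Control arrays. Map3k1, a kinase upstream of JNK and ERK, was at 9.04, 9.59 and 9.61 on the Control arrays, 9.51, 9.34 and 9.58 at End, 8.54, 8.58 and 8.97 at Post-2hr and 8.76, 9.33 and 9.47 at Post-24hr, and its Post-2hr arrays were below all Control and End arrays but not below replicate 1 of Post-24hr. Mapk4, an atypical MAP kinase, was at 8.61, 8.99 and 8.91 on the Control arrays, 8.80, 8.86 and 8.67 at End, 8.17, 8.45 and 8.40 at Post-2hr and 8.83, 8.64 and 8.57 at Post-24hr, with no overlap between Post-2hr and the rest. Map3k5 (ASK1), a stress-activated kinase, had a difference of −0.65, and Plcg1, which cleaves phosphatidylinositol bisphosphate, one of −0.37. Plcg1 was at 9.64, 9.83 and 9.77 on the Control arrays, 9.60, 9.65 and 9.70 at End, 9.34, 9.38 and 9.41 at Post-2hr and 9.68, 9.69 and 9.69 at Post-24hr, and its Post-2hr arrays lay 0.19 below every other array.

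The regulators of small GTPases were 7 genes. Fam13a was at 7.38, 7.55 and 7.63 on the Control arrays, 7.85, 7.46 and 7.99 at End, 6.87, 6.33 and 6.97 at Post-2hr and 7.32, 7.30 and 7.66 at Post-24hr, and Post-2hr was below all 9 other arrays. Inka2, an inhibitor of the kinase PAK4, was at 8.14, 8.48 and 8.36 on the Control arrays, 8.17, 8.25 and 8.51 at End, 7.65, 8.01 and 7.82 at Post-2hr and 7.99, 8.22 and 8.24 at Post-24hr. Post-2hr was below all Control and End arrays, and its replicate 2 was just above the replicate 1 array of Post-24hr. Srgap3, a GTPase-activating protein for Rac, had 2 rows in the set, with Post-2hr minus Control of −0.63 and −0.52. Chn2, a further Rac regulator, was at 10.74 ± 0.18 in Control and 10.25 ± 0.15 at Post-2hr, with no overlap. The small GTPase genes Rab3a and Rab38, of vesicle transport, and Rerg, a Ras-like protein, had Post-2hr minus Control of −0.40, −0.53 and −0.45, and their Post-2hr arrays overlapped the Control arrays. Symbols beginning Arhg were left out of the set by its rule.

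Transcription factors and chromatin regulators were 17 members, with differences from −1.25 to −0.37 and a median of −0.54. Atoh8, a basic helix-loop-helix factor known as a target of BMP signalling in liver and endothelial cells, was at 8.73, 9.60 and 9.39 on the Control arrays, 9.14, 8.88 and 8.87 at End, 8.06, 7.99 and 7.92 at Post-2hr and 8.96, 8.95 and 9.0 at Post-24hr. Its 3 Post-2hr arrays lay within 0.14 of each other and 0.67 below the next array of any group, and the Control arrays were spread most. Its Control mean was 9.24 ± 0.45 and its Post-2hr mean 7.99 ± 0.07, 2.38 times lower. Nr2f2 (COUP-TFII), an orphan nuclear receptor, was at 6.41, 7.24 and 7.26 on the Control arrays, 6.43, 6.82 and 7.16 at End, 5.86, 6.13 and 6.56 at Post-2hr and 6.37, 6.98 and 7.08 at Post-24hr, and the highest Post-2hr array was above the replicate 1 array of each other group. A second row of Nr2f2 that was not chosen was brighter, with a mean of 10.08, and its Post-2hr minus Control was −0.43 ± 0.22. Zbtb8b, a BTB zinc finger protein, was at 6.33, 7.64 and 7.20 on the Control arrays, 6.48, 7.50 and 7.29 at End, 5.81, 6.47 and 6.36 at Post-2hr and 6.53, 7.45 and 7.16 at Post-24hr. Replicate 1 was its lowest array in each group, and in Control it lay within the range of the Post-2hr arrays.

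Atf7ip, which stabilises the histone methyltransferase SETDB1, was at 10.38, 10.24 and 10.16 on the Control arrays, 10.39, 10.30 and 10.41 at End, 9.65, 9.66 and 9.67 at Post-2hr and 10.50, 10.20 and 10.11 at Post-24hr. Its Post-2hr arrays agreed within 0.02 and were 0.44 below the next array. Irf8, an interferon regulatory factor best known in myeloid cells, was at 8.97, 8.77 and 8.38 on the Control arrays, 9.18, 8.68 and 8.32 at End, 8.32, 7.95 and 7.92 at Post-2hr and 8.46, 8.06 and 7.90 at Post-24hr. Post-2hr lay below all Control arrays, and the Post-24hr arrays, from 7.90 to 8.46, overlapped those of Post-2hr. Meis1, a homeobox cofactor, and Pax2, a factor of nephron development, were at 8.35 ± 0.38 and 11.23 ± 0.22 in Control and at 7.68 ± 0.42 and 10.85 ± 0.19 at Post-2hr, with overlap in both. Hoxc5, a homeobox factor, was at 8.34, 8.35 and 8.39 on the Control arrays, 7.87, 7.64 and 8.03 at End, 7.92, 7.29 and 7.64 at Post-2hr and 8.04, 8.35 and 8.28 at Post-24hr. End as well as Post-2hr lay below all Control arrays for Hoxc5. Tbx20, Zhx3, Runx1t1, Hdac11, Zbtb25 and 4 further zinc finger genes (Zfp866, Zfp941, Zfp182 and Zkscan8) completed the group.

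RNA-binding and RNA-processing proteins were 7 genes, with a median difference of −0.65. Celf2, which binds GU-rich RNA and acts in splicing, was at 6.16, 6.90 and 6.30 on the Control arrays, 6.10, 6.25 and 6.10 at End, 5.60, 5.49 and 5.64 at Post-2hr and 6.34, 5.77 and 6.32 at Post-24hr. The Post-2hr arrays lay below all others by 0.13. A brighter second row of Celf2 that was not chosen, with a mean of 9.69, had Post-2hr minus Control of −0.31 ± 0.17. Zc3h6, a CCCH zinc finger protein, was at 8.15, 7.45 and 7.45 on the Control arrays, 7.86, 7.45 and 7.51 at End, 7.63, 6.58 and 6.65 at Post-2hr and 8.13, 7.45 and 7.12 at Post-24hr on the row of higher score. Its 2 rows differed from Control by −0.73 and −0.67 at Post-2hr, and in both the replicate 1 arrays were the highest of every group. Rbm47, a cofactor of messenger RNA editing and splicing, was at 8.19, 8.39 and 8.56 on the Control arrays, 8.20, 8.39 and 8.57 at End, 7.67, 7.74 and 8.04 at Post-2hr and 8.04, 8.48 and 8.43 at Post-24hr, with Post-2hr below all Control and End arrays. Tnrc6c, a protein of microRNA silencing complexes, was at 9.12, 8.87 and 8.63 on the Control arrays, 8.99, 8.93 and 8.85 at End, 8.69, 7.94 and 8.10 at Post-2hr and 8.80, 8.97 and 8.71 at Post-24hr, and the replicate 1 array of Post-2hr exceeded the lowest Control array.

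Mitochondrial proteins were 17 members, with differences from −0.73 to −0.35 and a median of −0.47. Nduf, Atp5 and most Cox subunit symbols were left out by the rule, so those respiratory chain subunits could not appear here. Dnajc19, of the inner membrane import motor, was at 7.64, 7.17 and 6.85 on the Control arrays, 6.94, 6.28 and 6.55 at End, 7.14, 6.43 and 5.90 at Post-2hr and 6.64, 7.65 and 6.88 at Post-24hr. Its End arrays were already low, and all groups overlapped. Dnajc28, a J-domain protein, was at 7.24, 7.24 and 7.15 on the Control arrays, 7.14, 7.46 and 7.34 at End, 6.52, 6.77 and 6.61 at Post-2hr and 6.89, 7.19 and 6.90 at Post-24hr, with Post-2hr 0.12 below every other array. Tst and Mpst are neighbouring genes on the genome and both encode sulfurtransferases that handle cyanide and hydrogen sulfide. Tst was at 8.62, 8.42 and 8.55 on the Control arrays, 8.61, 8.19 and 8.39 at End, 8.14, 7.71 and 8.09 at Post-2hr and 8.68, 8.04 and 7.97 at Post-24hr, and Mpst was at 8.40, 8.44 and 8.64 on the Control arrays, 8.72, 8.44 and 8.45 at End, 7.98, 7.97 and 8.25 at Post-2hr and 8.75, 8.10 and 8.46 at Post-24hr. Post-2hr lay below Control for both, but overlapped Post-24hr in both. Tfb1m, which methylates the mitochondrial small ribosomal RNA, was at 9.44, 8.87 and 8.89 on the Control arrays, 9.16, 9.0 and 9.10 at End, 9.01, 7.96 and 8.41 at Post-2hr and 9.52, 9.13 and 8.93 at Post-24hr. Its replicate 1 array at Post-2hr lay above the lowest Control arrays. Mmut, the methylmalonyl-CoA mutase, and Mmaa, which loads its cobalamin cofactor, had differences of −0.35 and −0.46, and the Post-2hr arrays were below all Control arrays for Mmut only. Further members were the deacylase Sirt5, the cardiolipin remodelling enzyme tafazzin (Taz), the malonyl-CoA synthetase Acsf3 and the D-glutamate cyclase Dglucy, whose Post-2hr arrays were 0.22 below all others.

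Retinoid, steroid and sulfation enzymes gave 3 members. Cyp26b1, which breaks down retinoic acid, was at 8.51, 11.27 and 10.35 on the Control arrays, 8.73, 10.98 and 10.33 at End, 7.85, 10.56 and 9.70 at Post-2hr and 9.18, 11.10 and 10.25 at Post-24hr. Replicate number separated these arrays more than harvest, and Post-2hr was the lowest array of each replicate number. Sult1c2, a cytosolic sulfotransferase, was at 8.30, 8.19 and 8.27 on the Control arrays, 8.46, 8.02 and 8.54 at End, 7.76, 6.27 and 7.76 at Post-2hr and 8.34, 8.29 and 8.67 at Post-24hr. The Post-2hr arrays lay 0.26 below all others, and replicate 2 was the lowest of the 3. Hsd11b2, which inactivates glucocorticoid hormone, was at 7.49, 7.64 and 7.92 on the Control arrays, 8.02, 7.83 and 7.85 at End, 7.05, 7.08 and 7.46 at Post-2hr and 7.37, 7.61 and 7.82 at Post-24hr, with Post-2hr below all Control and End arrays.

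Matrix and glycosaminoglycan genes were 7 members, and 5 of them make or trim matrix sugar chains. Sned1, a secreted matrix glycoprotein, was at 10.16, 8.86 and 9.40 on the Control arrays, 9.99, 8.82 and 9.09 at End, 9.50, 8.17 and 8.58 at Post-2hr and 9.77, 8.62 and 9.11 at Post-24hr. Replicate 1 was the highest array of each group and the groups overlapped. Mgp, the matrix Gla protein that inhibits calcification, was at 6.36, 8.44 and 8.41 on the Control arrays, 7.70, 8.21 and 8.29 at End, 6.0, 7.59 and 8.07 at Post-2hr and 6.30, 7.77 and 8.14 at Post-24hr, again with overlap, and replicate 1 was the lowest array of each group. Ndst3, which begins heparan sulfate sulfation, was at 7.31, 7.0 and 6.92 on the Control arrays, 7.29, 7.10 and 6.90 at End, 6.54, 6.51 and 6.62 at Post-2hr and 7.15, 6.88 and 6.60 at Post-24hr, with Post-2hr below Control and End but not below the replicate 3 array of Post-24hr. Hs6st2, which adds 6-O sulfate to heparan sulfate, had Post-2hr minus Control of −0.40 and Sulf1, which removes it, of −0.43. The hyaluronidase Hyal1 and the sulfotransferase Chst10 had values of −0.40 and −0.31.

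The proteins of polarity, junctions, cytoskeleton and cilium were 10 members, from −0.59 to −0.41. Epb41l5, which is known to support podocyte adhesion in mice, was at 9.60, 10.42 and 10.22 on the Control arrays, 9.63, 10.26 and 10.28 at End, 9.18, 9.63 and 9.84 at Post-2hr and 9.56, 10.12 and 10.12 at Post-24hr. Evc, a ciliary protein of hedgehog signalling, was at 9.13, 9.31 and 9.44 on the Control arrays, 9.37, 9.28 and 9.45 at End, 8.76, 8.81 and 9.07 at Post-2hr and 9.08, 9.27 and 9.32 at Post-24hr. Lrrcc1, a centrosomal protein, was at 8.90, 10.15 and 9.59 on the Control arrays, 9.01, 9.96 and 9.64 at End, 8.44, 9.21 and 9.23 at Post-2hr and 8.66, 10.01 and 9.52 at Post-24hr. Evc had Post-2hr arrays below all Control and End arrays, whereas Epb41l5 and Lrrcc1 overlapped because replicate 1 was lower in every group. Lpp, a focal adhesion protein, Llgl2, a basolateral polarity protein, and Cobl, an actin nucleator, had Post-2hr minus Control of −0.56, −0.41 and −0.44. The chosen row of Lpp was dim, with a mean of 6.55. A brighter second row of Lpp that was not chosen, with a mean of 11.29, had Post-2hr minus Control of −0.24 ± 0.20. The DNA damage tolerance and repair genes were 4, Primpol, Poli, Rad51d and Cyren, with differences of −0.54, −0.53, −0.40 and −0.40, and none had Post-2hr arrays below all Control arrays. Ubiquitin and proteolysis genes were 11. Sh3rf2, a ubiquitin ligase of the POSH family, was at 7.30, 7.80 and 7.46 on the Control arrays, 7.59, 8.07 and 7.80 at End, 6.82, 6.94 and 6.85 at Post-2hr and 7.90, 7.62 and 7.27 at Post-24hr, with Post-2hr below all other arrays by 0.33. The ubiquitin ligases Rnf128 and Trim30a had differences of −0.53 and −0.51, with overlap. The immunoproteasome subunit Psmb9 was the member of this group with the smallest difference, −0.33.

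Members outside these groups were 35, of which 5 were predicted gene models. Klhdc7a, a kelch domain protein, was at 8.87, 9.87 and 9.29 on the Control arrays, 8.83, 9.62 and 9.48 at End, 8.24, 8.56 and 8.56 at Post-2hr and 8.40, 9.66 and 9.39 at Post-24hr. Lratd1 was at 8.50, 9.60 and 8.98 on the Control arrays, 8.91, 8.97 and 8.65 at End, 7.94, 8.36 and 8.23 at Post-2hr and 8.06, 8.82 and 8.32 at Post-24hr. C1rl, a complement C1r-like protease, was at 7.46, 7.77 and 7.72 on the Control arrays, 7.57, 7.75 and 7.66 at End, 6.96, 7.24 and 7.22 at Post-2hr and 7.35, 7.53 and 7.53 at Post-24hr. Post-2hr lay below all Control and End arrays for these 3. Klhdc7a overlapped Post-24hr at its replicate 1 array and Lratd1 at replicates 1 and 3, and C1rl did not overlap it. The carriers Slc16a4 and Slc35f3 had Post-2hr minus Control of −0.53 and −0.46 and were the only 2 of the 316 measured solute carriers in the set.

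**Figure D3:**
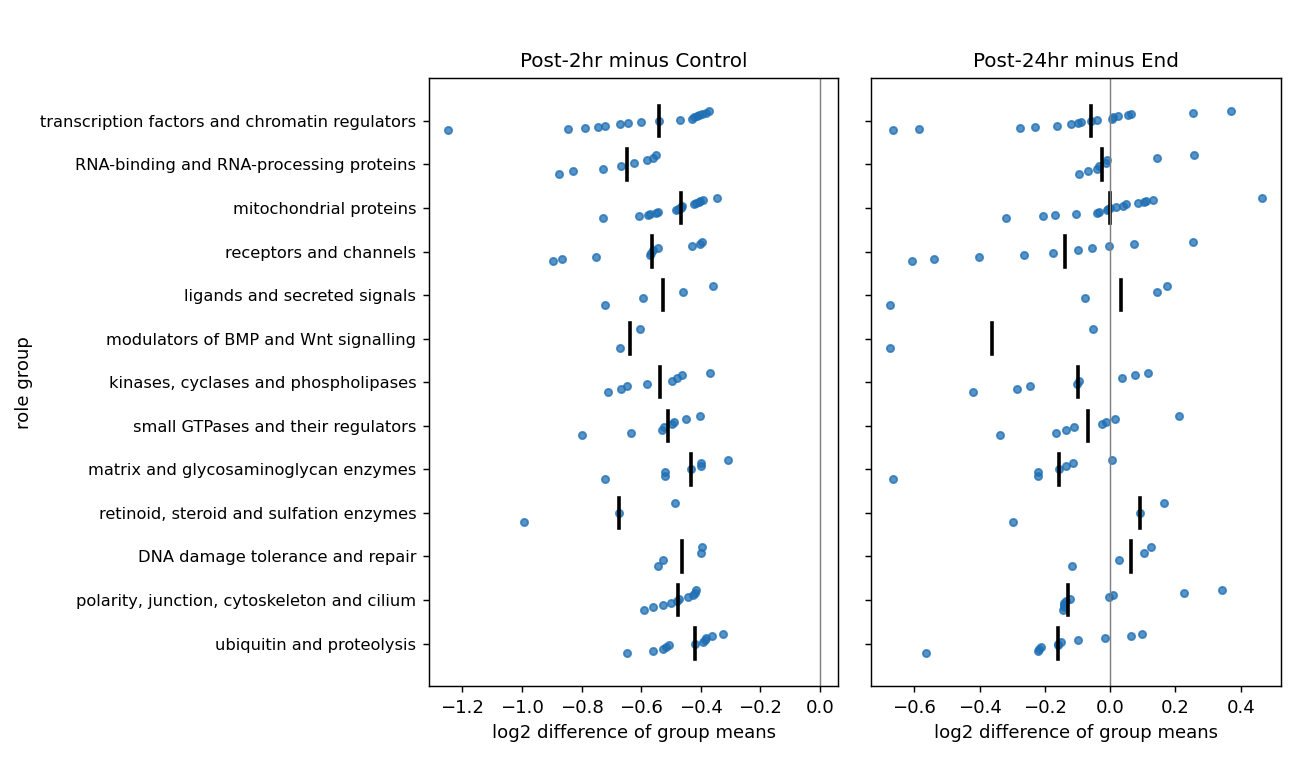
Differences of group means on the log2 scale for each member (point) by role group, with the group median as a vertical bar; the left panel is Post-2hr minus Control, which chose the members, and the right panel is Post-24hr minus End, which did not. The left-hand medians lie between −0.68 and −0.42 in all 13 groups, and the right-hand points scatter on both sides of 0.

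Group means that preceded and followed the low point varied among members, and this variation was not tested. The share of the gap between the Control and Post-2hr means that was already present at End had a median of 5.37%, and 56 members had an End mean above Control. The share of the gap that was closed at Post-24hr had a median of 77.3%. With the split at 50%, 123 members were low after End and had closed most of the gap, 14 were low after End and had not, and 6 were already low at End and closed most of the gap. The 6 were Dnajc19, Hoxc5, Strbp, Usp12, Zfp941 and a predicted gene model. A second row of Strbp that was not chosen, with a mean of 8.66, had Post-2hr minus Control of −0.31 ± 0.46. The 14 were Lratd1, Dact2, Irf8, Tst, Olfr353, Pax2, Mgp, Acsf3, P2rx6, Zfp182, Folh1, Ube2v2, Ctso and Tnfrsf19. For 24 members the Post-24hr mean reached or passed the Control mean, Calhm5, Bmp4, Lypd6 and Cyp26b1 among them. By role, the median share closed ran from 61.1% in the matrix group to 93.2% in ligands among groups of 4 or more members. Taken within each replicate number, the median share present at End was 3.40%, 7.51% and 3.87%, and the median share closed was 88.9%, 79.4% and 70.8%. All of these shares contain the Control and Post-2hr values that chose the members. The demand for the lowest mean at Post-2hr also bounds both shares. The same shares over candidates were not computed, so nothing particular to the members is read from these counts.

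The End and Post-24hr comparisons with Control use the same Control arrays as the choice, which favours members with high Control values. For End minus Control the members' median was −0.03 (all rows 0.01). Of 143 members 56 (39.2%) were higher, beside 54.2% of all rows, and 87 were lower. Of the members 0 were called (limma, Benjamini-Hochberg), as were 0% of all rows. At an unadjusted p under 0.05 in limma's fit, 4 members (2.80%) and 3.62% of all rows passed. With the replicate number as a block, 9 of 143 members and 7.24% of all rows did so, and 0 rows were called. The members with the highest End minus Control were Runx1t1 (0.41 ± 0.12), Cxcl12 (0.34 ± 0.34), Mgp (0.33 ± 0.69), Sh3rf2 (0.30 ± 0.19) and Gpr146 (0.29 ± 0.11). Those with the lowest were Dnajc19 (−0.63 ± 0.36), Hoxc5 (−0.51 ± 0.16), Strbp (−0.37 ± 0.44), Zfp941 (−0.34 ± 0.13) and Celf2 (−0.30 ± 0.20). For Post-24hr minus Control the members' median was −0.11 (all rows 0.00). Of the members 24 (16.8%) were higher, beside 50.7% of all rows, and 119 were lower. In limma's fit 0 members were called, as were 0% of all rows. An unadjusted p under 0.05 in limma's fit was found for 5 members (3.50%) and 2.4% of all rows. With the block, 0 rows were called, and 17 of 143 members and 5.37% of all rows had an unadjusted p under 0.05.

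The comparison of Post-24hr with End uses no value that chose the members, beyond the demand that both means exceed the Post-2hr mean. No member passed: 0 of 143 were called in limma's fit, and 0% of all 23332 rows. At an unadjusted p under 0.05 there were 7 members (4.90%), beside 5.77% of all rows. With the replicate number as a block, 0 members and 2 rows were called in limma's fit. An unadjusted p under 0.05 was then found for 23 of 143 members and 12.3% of all rows. The members' median was −0.06, beside −0.01 in all rows and −0.03 in candidates, and 46 members (32.2%) had the higher mean at Post-24hr, beside 48.3% of all rows and 42.1% of candidates. All Post-24hr arrays lay below all End arrays for 8 members (6.84% of all rows) and above them for 3 (4.86% of all rows). The smallest adjusted p among members was that of Runx1t1, a transcriptional corepressor, whose levels were 7.59, 7.45 and 7.36 on the Control arrays, 7.97, 7.75 and 7.91 at End, 7.05, 6.71 and 7.01 at Post-2hr and 7.29, 7.06 and 7.28 at Post-24hr. End was the highest group and Post-24hr lay below both End and Control without overlap, at Post-24hr minus End of −0.67 ± 0.12 (limma, adjusted p = 0.249, and 0.0592 with the replicate block). Gpr146 had the next smallest, −0.54 ± 0.11 (limma, adjusted p = 0.337). Other large negative differences were those of Cxcl12 (−0.68 ± 0.34, limma adjusted p = 0.927), Dact2 (−0.67 ± 0.20, limma adjusted p = 0.668), Mgp (−0.66 ± 0.69, limma adjusted p = 0.999) and P2rx6 (−0.61 ± 0.21, limma adjusted p = 0.736). P2rx6 was at 7.30, 7.81 and 8.02 on the Control arrays, 7.74, 7.94 and 8.19 at End, 6.96, 7.12 and 7.42 at Post-2hr and 7.04, 7.44 and 7.58 at Post-24hr, and its End arrays were all above its Post-24hr arrays. The largest positive differences were those of Dnajc19 (0.46 ± 0.36), Hoxc5 (0.37 ± 0.16), Lpp (0.34 ± 0.18), Strbp (0.26 ± 0.44) and Npy2r (0.25 ± 0.64), with limma adjusted p-values from 0.857 to 0.999. Of these differences, 6 moved by over 1.5 times when 1 array was left out. Without Post-24hr replicate 1, Cxcl12 was at −0.23, Mgp at −0.11 and Strbp at −0.19. Dnajc19 was at 0.17 without Post-24hr replicate 2 and at 0.31 without End replicate 2, and Lpp was at 0.19 without End replicate 1. Mgp was at −1.03 without Post-24hr replicate 3. Strbp moved that far without any 1 of the End and Post-24hr arrays other than End replicate 2, from −0.19 to 0.56, the latter without Post-24hr replicate 3. Npy2r did so without any 1 of these 6 arrays, from −0.13 without End replicate 1 to 0.73 without Post-24hr replicate 1. Dact2, Runx1t1, P2rx6 and Hoxc5 moved by less than 1.5 times.

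Many members differed by replicate number. The labels name no batch, and replicate 1 arrays lay apart from replicates 2 and 3 in all groups. With group means held in limma's fit, 86 of 143 members (60.1%) passed the threshold for replicate 1 against replicates 2 and 3, with 44 higher in replicate 1 and 42 lower (adjusted p under 0.05). Over all rows 30.5% differed, 19.5% higher and 11% lower, and among candidates 45.7%. A constant offset of replicate 1 cancels in the score, which subtracts arrays of the same number, so such transcripts could enter the set with overlapping groups. Rerg was higher in replicate 1 by 2.14 ± 0.10 (limma, adjusted p = 4.02e-06), with arrays of 10.23, 8.04 and 8.09 on the Control arrays, 9.97, 8.11 and 8.0 at End, 9.88, 7.40 and 7.72 at Post-2hr and 10.01, 7.65 and 8.10 at Post-24hr. Folh1, a folate and glutamate carboxypeptidase, was lower in replicate 1 by −2.29 ± 0.14 (limma, adjusted p = 1.24e-05), with arrays of 6.43, 9.41 and 8.87 on the Control arrays, 7.19, 9.17 and 8.90 at End, 6.11, 8.45 and 8.47 at Post-2hr and 6.35, 8.67 and 8.55 at Post-24hr. In both the replicate 1 array lay outside the range of replicates 2 and 3 in all 4 groups. Next in size were Sned1 (1.02 ± 0.13), Strbp (0.99 ± 0.11), Primpol (0.91 ± 0.08) and Mmaa (0.91 ± 0.06), higher in replicate 1. Cyp26b1 (−2.0 ± 0.26), Mgp (−1.53 ± 0.21), Npy2r (−1.45 ± 0.16) and Tnfrsf19 (−1.05 ± 0.11) were lower in it, all 8 with limma adjusted p-values from 2.03e-05 to 0.00073.

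Counts of members past the threshold for replicate 1 differed between role groups. Of the 17 mitochondrial members, 11 were higher in replicate 1 and 0 lower, Tfb1m (0.50 ± 0.12), Mmut (0.18 ± 0.05) and Sirt5 (0.18 ± 0.06) among them. Of 10 receptors and channels, 6 were lower and 1, Fzd4, was higher. Of the 10 polarity, junction, cytoskeleton and cilium members 6 were lower, Llgl2 (−0.95 ± 0.07) and Cobl (−0.50 ± 0.11) among them, and 1, Cep57l1, was higher. The repair genes Primpol, Poli and Rad51d were higher. Transcription factors went both ways, with Irf8, Meis1, Zbtb25 and Hdac11 higher and Nr2f2, Zbtb8b, Zhx3, Tbx20 and Pax2 lower in replicate 1. The groups were drawn up after the members were known, and the difference between groups was not tested. Among candidates 45.7% passed in either direction. Shares for genes of the same roles outside the set were not computed, so nothing particular to the members is read from these counts. The plot of replicate 1 differences shows a flatter, wider spread for members than for candidates.

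**Figure D4:**
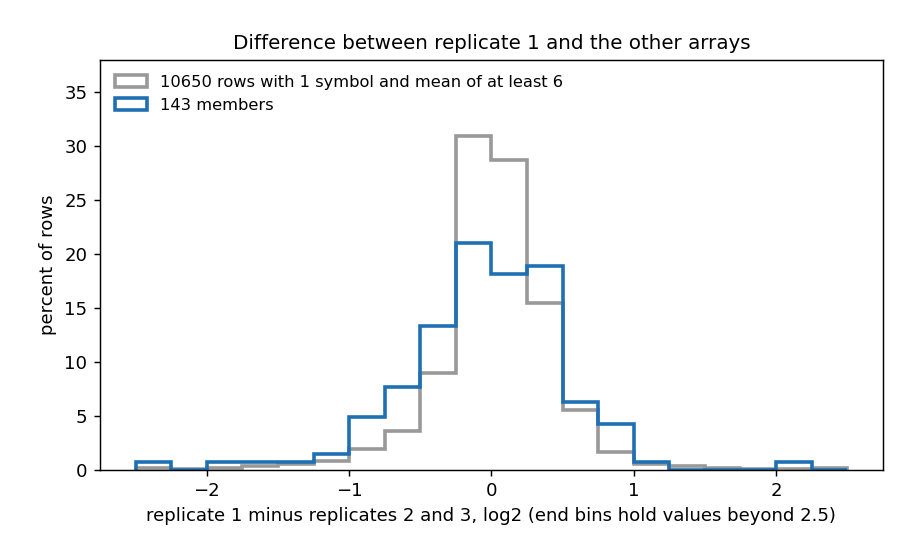
Distribution of the log2 difference between replicate 1 and the mean of replicates 2 and 3, with group means held in the fit, for the 143 members (blue) and the 10650 candidate rows (grey), as percent of rows per bin. Members have fewer values near 0 and more in both shoulders.

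Members were dimmer than candidates and brighter than the table as a whole, with a median level over the 12 arrays of 8.40, beside 8.79 and 7.01. Along the genome, 2 pairs of members were next to each other among protein-coding genes, Tst with Mpst and Plcg1 with Zhx3, of 138 members that could be placed in RefSeq (GRCm38.p6). Of 14860 gene symbols measured, 0.949% are members. C2H2 zinc finger genes held 6 members of 257 measured (2.33%). Symbols of some ubiquitin ligase families held 2 of 205 (Rnf128 and Trim30a), solute carriers 2 of 316 and Gpr or Adgr symbols 1 of 75 (Gpr146). These lists were drawn up by symbol, so the receptors Npy2r, Fzd4 and Olfr353 and the ubiquitin ligase Sh3rf2 fall outside them. The zinc finger genes had a median Post-2hr minus Control of −0.11, with 186 of 257 lower, beside −0.02 in all rows. In limma's fit over all rows 0 of them passed. As background for this and the counts below, 12905 of 23332 rows and 6389 of 10650 candidates were lower at Post-2hr than in Control. No member belonged to the other 16 lists, among them ribosomes, mitochondrial carriers, the respiratory chain, histones, primary cilium, FoxO-type targets, insulin signalling, the circadian clock, growth arrest, TGF-beta and BMP receptors, Notch, DNA repair, fatty acid oxidation and vesicles. The repair and cilium lists are short and do not contain Primpol, Poli, Rad51d, Cyren or Evc, which the role groups place there. Of these lists, primary cilium genes had a median of −0.18 with 33 of 38 lower, FoxO-type targets −0.16 with 18 of 22 lower, and DNA repair genes −0.11 with 25 of 31 lower, with 0 past the threshold in each. These 4 medians stayed below 0 in the 5 alternatives tried, other scalings among them. The other lists had medians between −0.10 (growth arrest) and 0.05 (Gpr and Adgr symbols).

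Marker lists for podocytes and for other kidney cell types held 0 members. The podocyte genes Podxl and Wt1 were at 8.89 to 10.46 and 7.19 to 7.54 over the 12 arrays and Nphs1 at 6.55 to 6.89, close to the median row, while the leukocyte gene Ptprc was at 3.86 to 4.09 and the endothelial gene Pecam1 at 5.43 to 5.65. No detection calls were used, so it is not known which of these dim values exceed background. Over all arrays, the median of the marker list was 8.39 to 9.84 for podocytes, 5.36 to 5.74 for leukocytes, 5.45 to 5.73 for endothelium and 7.34 to 7.87 for mesangial cells and fibroblasts, with ranges that overlapped between Control and Post-2hr. That of 7 measured tubule genes was 6.53 to 6.70 in Control, 6.64 to 6.77 at End, 6.76 to 6.84 at Post-2hr and 6.57 to 6.66 at Post-24hr, without overlap between Post-2hr and Control. Array medians of 6 measured proliferation genes ran from 7.70 to 9.06 in Control, 7.71 to 9.19 at End, 7.21 to 9.28 at Post-2hr and 7.28 to 9.84 at Post-24hr, overlapping between groups. The part of these genes in the members' levels was not tested. Array medians over all rows were 6.93 to 7.11.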

How the data were processed

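Gene expression was measured on 12 Affymetrix Mouse Exon 1.0 ST arrays, 3 in each of 4 groups. The deposited values are gene-level log2 intensities, and per the submitters' processing notes RMA and Partek were used, without versions. Per the labels' protocols, the probes of a gene's exons were condensed to a single value. A genome build is not given in the sources used. RMA gives all arrays nearly the same distribution, which hides any change in total RNA per cell. The number of arrays limits the precision, and detection calls and scanner files were not used. Of the 23332 rows, 14996 have 1 symbol in the platform annotation, 1019 several and 7317 are unnamed here; 141 of 143 members' gene identifiers matched RefSeq (GRCm38.p6), with 0 symbols changed.

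One linear model per row was fitted to all 12 arrays and all rows (limma 3.58.1, R 4.3.3), with group means (8 residual and 2.16 prior degrees of freedom), and a second with a replicate 1 term (7 and 2.17). The labels' titles give each group replicate numbers 1 to 3. Same-numbered arrays deviated together in the 3 comparisons tested between groups. Their correlations ran from 0.15 (End with Post-24hr, replicate 2) to 0.63 (Control with Post-24hr, replicate 1). The pair of Post-2hr and Post-24hr, replicate 2, was at 0.03. These numbers were taken as pairs, and counts with the replicate number as a block stand beside the unblocked counts. Standard errors and p-values of single members between groups come from the unblocked fit unless the block is named. They leave the pairing out and contain the spread between replicate numbers. P-values were adjusted by Benjamini-Hochberg over all rows, with a threshold of 0.05. Tables were made with pandas 2.3.3 and numpy 2.4.6 in Python 3.11.15. The fits were run on simulated data with independent arrays. Those data lack the shared deviation of same-numbered arrays, so nothing about the results here is read from them. The 14 motifs were searched on both strands, and none contains another.

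The members, the 20 gene lists, the marker lists and the motifs were chosen with earlier results of these data known, and the 13 role groups after the members' values were seen. Primpol is in 2 role groups. Array values are given for the 20 rows of highest score (a predicted gene model excepted) and up to 3 members of highest score in role groups of 4 or more; further members were named with values after these had been seen. The 5 most extreme members were named in each direction for End minus Control, Post-24hr minus End and replicate 1. Alternatives were the replicate number as a block, a replicate 1 term, other scalings and filters, an intensity trend, array weights, no variance moderation and each array left out.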

Additional observations from a re-analysis of the deposited data

How the results depend on the processing

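Membership depended on the choice more than the tests did. Of the 143 members, 80 were chosen again when the score was the mean over replicate numbers instead of the smallest difference. Without replicate 1, 2 or 3 as a whole, 65, 117 and 51 were chosen again, a range of 51 to 117. The number was 113 after quantile normalization, 118 after median centring, 139 and 130 with a mean of at least 5 and 7, 138 with 1 row per symbol, and 143 of 150 with exclusions made first. The median share of the gap present at End, 5.37%, was 10.7% after quantile normalization and 1.91% to 7.68% without a replicate number. The share closed at Post-24hr ran from 72.7% to 82.3%. For Post-24hr minus End, End minus Control and Post-24hr minus Control, 0 members were called in all 21 alternatives. Over all rows, array weights called 12, 77 and 3, and the other alternatives called 0 to 12 for Post-24hr minus End and 0 for the other 2; Post-2hr minus Control called 1 to 8 rows except with a replicate 1 term (36), a replicate block (38) and array weights (3863). Members differing in replicate 1 numbered 66 to 96 in 19 alternatives, 66 to 85 with 1 array left out. The sign of Post-24hr minus End reversed for Strbp without Post-24hr replicate 1 (−0.19, range with 1 array left out to 0.56) and for Npy2r without End replicate 1 (−0.13, range to 0.73) or Post-24hr replicate 3 (−0.02). The cause was not tested. With the replicate block, 0 members were called in these 3 comparisons and 2 rows for Post-24hr minus End, and the block changed no call of a member there. Signal near background cannot be told from no signal.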
